A study of Mus musculus with 7 samples.

Results

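The chemokines and their receptors were taken from the arrays by name: every non-control feature whose gene name begins with Ccl, Cxcl, Ccr or Cxcr and a digit, together with Xcl1, Xcr1, Cx3cl1 and Cx3cr1. Ccrn4l and the Ccrl genes were left out. This gave 57 of the 36492 gene names on the array, 37 ligands and 20 receptors, read by 69 of 55681 features (60-base probes). The livers came from 3 wild type (WT) and 4 SHIVA mice, 1 array per mouse, and the question was which genes of this system differed between the genotypes after a fast. All 7 mice were C57BL/6 females of 8 to 12 weeks, and all had been fasted for 24 h. SHIVA mice carry a chemically induced (ENU) dominant mutation that changes 1 amino acid in the DNA-binding HMG domain of the transcription factor Sox17. The mutation is in the germline of a single line kept by backcrossing to C57BL/6. The study describes all viable mutants as heterozygous.

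Chemokines are small secreted proteins that attract white blood cells along a gradient. They are named by the spacing of their first cysteines (C, CC, CXC and CX3C) and act on receptors that signal through G proteins. In the liver, Kupffer cells, endothelium, stellate cells and hepatocytes all make some of them after injury or infection, and in healthy tissue a few are made at a steady level.

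The 7 arrays lay on 1 slide, with WT in row 1 and SHIVA in row 2, so that place on the slide and genotype cannot be told apart. The share of features well above background was 44.5% to 46.3% on the WT arrays and 45.8% to 48.7% on the SHIVA arrays. Sox17 itself read from 3.42 to 4.53 on the log2 scale in WT and from 4.47 to 4.77 in SHIVA livers, with overlap. It was well above background on 2 of 3 WT and all 4 SHIVA arrays, and its log2 fold change was 0.69 (SE 0.25, limma adjusted p = 0.280). A change of 1 amino acid need not alter its transcript level. All 8 hepatocyte markers were well above background. Values below are log2 signals after quantile normalization, a fold change is the SHIVA mean minus the WT mean on that scale, and adjusted p-values are those of limma with Benjamini-Hochberg adjustment over the 20002 genes tested. Genes entered the test if 3 or more arrays showed their feature well above background, and were called at an adjusted p under 0.05. The labels call each array a separate mouse, and the number of arrays limits the precision. Levels of different genes are not compared, because features differ in how strongly they bind.

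Much of the chemokine system was dim in these livers. Of the 57 members, 26 were well above background on all 7 arrays and 31 could be tested, 23 of 37 ligands and 8 of 20 receptors. On no array were 21 members well above background. Among them were the neutrophil attractants Cxcl2, Cxcl3 and Cxcl5, the macrophage product Ccl3, the eosinophil attractant Ccl11, the monocyte receptor Ccr2, and Ccr1, Ccr3, Ccr4 and Cxcr1. The other 5 members that were not tested reached that level on 1 or 2 arrays, and in all 5 these were SHIVA arrays. They were Ccl8, Ccl22, Ccr6, Cxcr2 and Cxcr4, of which Cxcr2, the receptor for Cxcl1, was above background in SHIVA replicates 2 and 3. Of the 2319 other genes seen on 1 or 2 arrays, 62.7% were seen in SHIVA livers only.

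**Figure D1:**
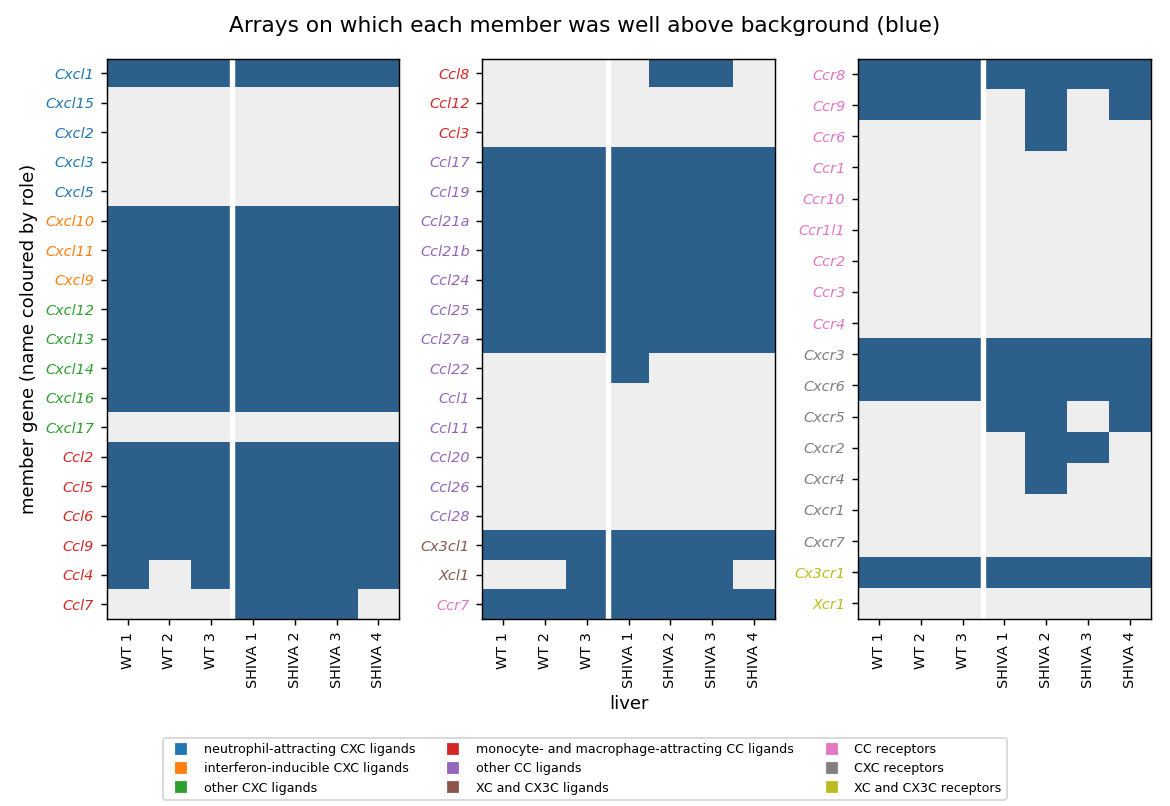
Detection of 56 members on the 7 arrays, with 1 member not drawn. Rows are genes, with names coloured by role, columns are livers, and blue marks a feature well above background on that array. Solid rows are members above background on all 7 arrays, and 21 rows are empty.

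Only 1 member was called, Cxcl14, which fell in SHIVA livers, while 0.375% of all genes tested were called. At an unadjusted p under 0.05, 11 of the 31 members were higher in SHIVA livers, against 7.24% of all genes, and 3 were lower, Cxcl14 among them, against 6.09%. The other 13 did not pass the adjusted threshold. In 7 of 31 members every SHIVA liver was above every WT liver, which held for 6.14% of all genes, and in 2 every SHIVA liver was below, against 6.02%. Of these 9, Cx3cr1 and Cxcl11 overlapped under scaling to the 75th percentile, on the mean signal, in the authors' table and with normexp correction, and the count was 7, 7, 7 and 8 there. The median log2 fold change of the tested members was 0.31 and that of all genes -0.01. These members were read in the same 7 livers and vary together, and 2 of them, Ccl7 and Cxcr5, passed the filter through SHIVA arrays alone. Among the 26 members above background on all arrays, 18 had a higher mean in SHIVA livers and 9 had no overlap, against 47.9% and 12.2% of the 17538 genes above background on all arrays.

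**Figure D2:**
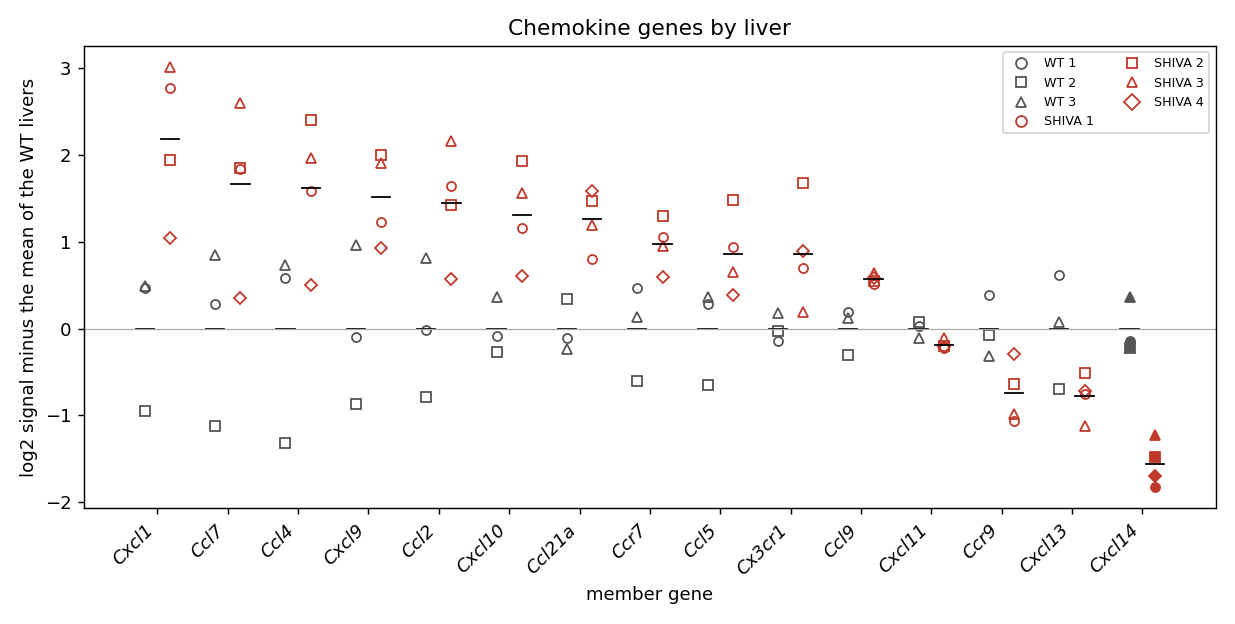
Members with an unadjusted p under 0.05 or without overlap between the genotypes, each liver plotted as its log2 signal minus the mean of the WT livers. Grey symbols are the 3 WT and red symbols the 4 SHIVA livers, symbol shapes give the replicate, bars are group means, and filled symbols mark Cxcl14, the gene called. WT replicate 2 and SHIVA replicate 4 are the lowest of their group for Cxcl1, Cxcl10, Cxcl9, Ccl2 and Ccl4.

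Cxcl14 is a CXC chemokine made by many epithelia at rest and also linked to metabolism. Its feature lies at chr13:56390078-56390137 of mm9. The log2 signal was 6.55, 6.47 and 7.06 in WT livers and 4.87, 5.22, 5.46 and 4.99 in SHIVA livers. The highest SHIVA liver was thus a full log2 unit below the lowest WT liver. The log2 fold change was -1.56 (SE 0.21, adjusted p = 0.0268), a 2.95-fold lower signal. The call was lost without WT replicate 1 (adjusted p = 0.116), WT replicate 2 (0.112), SHIVA replicate 1 (0.0809), SHIVA replicate 3 (0.0521) or SHIVA replicate 4 (0.0636), at log2 fold changes of -1.47 to -1.67 and always with the genotypes apart. It was also lost with no filter on dim features (adjusted p = 0.111). On the mean signal without background correction the fold change was -0.97 and with normexp correction -0.71, the latter with an adjusted p of 0.0639.

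Cxcl1, which draws neutrophils through Cxcr2, had the largest difference among the members. Its log2 signal was 5.43, 4.01 and 5.45 in WT livers and 7.72, 6.89, 7.97 and 6.00 in SHIVA livers. All 4 SHIVA livers were above all 3 WT livers, but both genotypes spread widely, with an SD of 0.82 in WT and 0.89 in SHIVA livers. The log2 fold change of 2.19 (SE 0.52, adjusted p = 0.145) did not pass the threshold. With normexp correction it was 1.20. Cxcl1 was the only tested member of the 5 neutrophil-attracting CXC ligands.

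Cxcl9 and Cxcl10 are interferon-inducible ligands of Cxcr3, the receptor of activated T cells. For Cxcl10 the log2 signal was 6.31, 6.12 and 6.76 in WT livers and 7.56, 8.32, 7.95 and 7.0004 in SHIVA livers, with no overlap and a log2 fold change of 1.31 (SE 0.31, adjusted p = 0.144), or 0.85 with normexp correction. For Cxcl9 it was 7.30, 6.53 and 8.36 in WT livers and 8.63, 9.40, 9.31 and 8.32 in SHIVA livers. Here WT replicate 3 lay just above SHIVA replicate 4, so the genotypes overlapped. The log2 fold change of Cxcl9 was 1.52 (SE 0.43, adjusted p = 0.207), and its second feature gave 1.41. Without WT replicate 3, Cxcl9 was called, with an adjusted p of 0.0400 and a log2 fold change of 2.00. Cxcr3 ranged from 4.97 to 6.24 in WT and from 5.72 to 6.22 in SHIVA livers, and its log2 fold change was 0.24 (SE 0.29, adjusted p = 0.772).

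To show what was in the window just before the start of the gene called and of the 2 CXC ligands with the next clearest separation, the 250 bases upstream of each start are given from RefSeq (GRCm38.p6). The Cxcl14 stretch is chr13:56296552-56296801 (minus strand), that of Cxcl1 chr5:90890995-90891244 (plus strand) and that of Cxcl10 chr5:92348890-92349139 (minus strand). Capitals mark matches to the NF-kB site, the interferon element core (a pair of GAAA blocks, 2 bases apart) and the Sox core ACAAT, all sought on both strands, and the forward TATAAA box, which none of these 3 held.
Cxcl14: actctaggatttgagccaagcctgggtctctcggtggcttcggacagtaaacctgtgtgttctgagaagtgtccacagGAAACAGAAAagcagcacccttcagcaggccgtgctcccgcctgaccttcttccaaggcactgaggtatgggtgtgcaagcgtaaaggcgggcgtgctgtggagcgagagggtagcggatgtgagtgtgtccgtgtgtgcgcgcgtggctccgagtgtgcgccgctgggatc
Cxcl1: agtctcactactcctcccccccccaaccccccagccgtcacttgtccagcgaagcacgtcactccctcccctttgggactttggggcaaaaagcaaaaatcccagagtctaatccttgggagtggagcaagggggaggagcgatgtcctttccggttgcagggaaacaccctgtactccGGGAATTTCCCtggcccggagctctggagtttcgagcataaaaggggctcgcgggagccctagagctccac
Cxcl10: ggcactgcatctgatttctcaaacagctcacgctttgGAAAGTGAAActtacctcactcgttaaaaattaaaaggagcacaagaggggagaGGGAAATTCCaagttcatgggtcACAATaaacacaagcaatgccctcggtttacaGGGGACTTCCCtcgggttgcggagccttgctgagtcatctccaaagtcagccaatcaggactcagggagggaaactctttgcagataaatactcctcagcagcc
The Cxcl14 window held 1 interferon element core, 172 to 163 bases before the start, and no NF-kB match. In Cxcl1 the NF-kB matches on the 2 strands overlap between 71 and 61 bases before the start. Cxcl10 held an NF-kB match 159 to 150 bases before the start, overlapping ones between 104 and 94, an interferon element core 213 to 204 bases before it and a Sox core 136 to 132 bases before it. Over the 32851 promoters of the table, the NF-kB site was matched in 7.3%, the interferon element core in 3.0%, the Sox core in 27.7% and the TATA box in 7.6%. Of the 45 promoters listed for 41 members, 10 matched NF-kB, 3 the interferon element core, 9 the Sox core and 10 the TATA box. Of the 24 promoters of members that were tested, 3 matched NF-kB (Ccl9, Cxcl1 and Cxcl10), 3 the interferon element core, 4 the Sox core and 5 the TATA box. A match says that the letters are there, not that a factor binds.

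Cxcl11, the other interferon-inducible ligand, had a feature whose signal cannot be assigned to the gene with certainty. Its log2 signal was 16.48, 16.52 and 16.34 in WT livers and 16.22, 16.25, 16.34 and 16.24 in SHIVA livers. The genotypes touched without overlapping, at a log2 fold change of -0.19 (SE 0.13, adjusted p = 0.592). This feature stood at the 99.8th percentile of signal, and 5 features of other genes (Elk1, Med16, Ndor1, F10 and an unnamed transcript) share at least 20 bases with it on the same strand. All 5 were at the 98.1st percentile or above. The stretch below, with the 20 bases most often shared in capitals, shows the part in question.
Cxcl11: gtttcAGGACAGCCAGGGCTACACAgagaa
The second Cxcl11 feature shared no such stretch, was between 8.62 and 9.05 on all arrays and had a log2 fold change of -0.15.

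Of the other CXC ligands, Cxcl12, the steady-state ligand of Cxcr4, ranged from 13.16 to 13.41 in WT and from 13.09 to 13.36 in SHIVA livers. Its log2 fold change was -0.03 (SE 0.14, adjusted p = 0.959), with a sign that turned under some settings. Its receptor Cxcr4 was above background only in SHIVA replicate 2, and Cxcr7 (now Ackr3), which also binds it, on no array. Cxcl13, the ligand of Cxcr5 that guides B cells, read 6.998, 5.68 and 6.46 in WT livers and 5.63, 5.87, 5.26 and 5.66 in SHIVA livers. WT replicate 2 lay among the SHIVA livers, and the log2 fold change was -0.78 (SE 0.30, adjusted p = 0.307). Cxcl16, the ligand of Cxcr6 made by endothelium and macrophages, had a log2 fold change of 0.20 (SE 0.19, adjusted p = 0.702). Cxcr6, found on liver NK and T cells, had one of -0.02 (SE 0.24, adjusted p = 0.981), whose sign was not settled either.

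The CC ligands that attract monocytes and macrophages were 9 genes, of which 6 were tested and 5 had a higher mean in SHIVA livers. Ccl2, the main ligand of Ccr2, read 5.75, 4.97 and 6.57 in WT livers and 7.40, 7.19, 7.93 and 6.34 in SHIVA livers. SHIVA replicate 4 was below WT replicate 3, and the log2 fold change of 1.45 (SE 0.44) had an adjusted p of 0.232. Ccl2 is spotted 10 times on each array, and the SD between its spots was 0.07 to 0.19, against 0.80 between WT and 0.66 between SHIVA livers. With 1 array per mouse, the spread between mice and that between arrays cannot be told apart. With normexp correction the log2 fold change was 0.85.

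Ccl7, which lies beside Ccl2 on chromosome 11, was not well above background in any WT liver and was so in SHIVA replicates 1 to 3. Its log2 signal was 2.98, 1.57 and 3.54 in WT livers and 4.54, 4.55, 5.30 and 3.04 in SHIVA livers, the last not well above background. SHIVA replicate 4 was below WT replicate 3, so the genotypes overlapped. Its SHIVA mean was set against the lowest signal counted as above background on each WT array, or its own signal there where higher. By that measure the SHIVA mean was at least 1.77-fold higher on this scale. The limma fit had an adjusted p of 0.271. On the mean signal and in the authors' table, which keep the background, the fitted log2 fold change was 0.46, and with normexp correction 0.29. Ccl4, a macrophage and lymphocyte product, read 4.59, 2.69 and 4.75 in WT livers and 5.59, 6.41, 5.97 and 4.51 in SHIVA livers. WT replicate 2 was not well above background for Ccl4, SHIVA replicate 4 lay below WT replicates 1 and 3, and the log2 fold change was 1.61 (SE 0.57, adjusted p = 0.277). It was 0.95 without WT replicate 2, 0.72 on the mean signal and 0.49 with normexp correction.

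Ccl5, made by T and NK cells among others, read 9.16, 8.22 and 9.22 in WT livers and 9.80, 10.34, 9.52 and 9.26 in SHIVA livers. The groups did not overlap, although SHIVA replicate 4 was above WT replicate 3 by only a few hundredths. The log2 fold change was 0.86 (SE 0.32, adjusted p = 0.294), and 0.54 without WT replicate 2. Ccl9, a macrophage product that acts on Ccr1, read 11.47, 10.98 and 11.40 in WT livers and 11.80, 11.83, 11.92 and 11.86 in SHIVA livers. Its 4 SHIVA livers were closely alike, with an SD of 0.05, and the log2 fold change was 0.57 (SE 0.16, adjusted p = 0.204). Ccl6, its neighbour on chromosome 11 and also a macrophage product, had a lower mean in SHIVA livers (log2 fold change -0.28, SE 0.22, adjusted p = 0.646), with overlap.

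**Figure D3:**
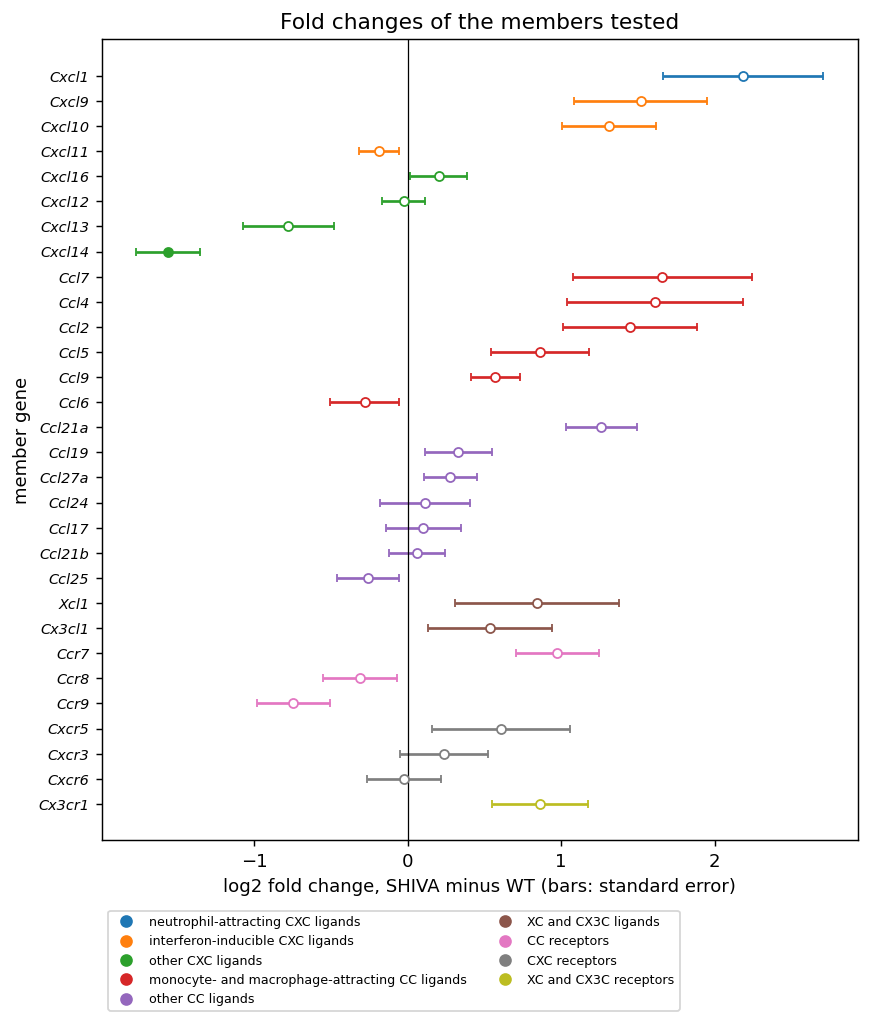
Log2 fold change (SHIVA minus WT) of 30 of the 31 tested members, grouped and coloured by role. Bars are the standard error from limma, and the filled point is the gene called. Cxcl14 is the lowest at -1.56 and Cxcl1 the highest at 2.19.

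Among the other CC ligands, Ccl21a had the largest difference. Ccl21 guides dendritic cells and naive T cells through Ccr7 and is made by lymphatic endothelium. The Ccl21a feature (chr4:42232117-42232176, mm9) read 7.30, 7.76 and 7.17 in WT livers and 8.21, 8.87, 8.61 and 8.997 in SHIVA livers. Every SHIVA liver was above every WT liver, with a log2 fold change of 1.26 (SE 0.23, adjusted p = 0.0737). Ccl21a was called with the mean signal in place of the processed one (adjusted p = 0.0355), with the authors' table (0.0341) and when only genes above background on all 7 arrays were tested (0.0470).

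The Ccl21b feature (chr4:41775274-41775333, mm9) read a near-copy of the same sequence and gave another result. It was at 11.24, 11.79 and 11.52 in WT livers and 11.37, 11.81, 11.47 and 11.65 in SHIVA livers. The genotypes overlapped throughout, and the log2 fold change was 0.06 (SE 0.18, adjusted p = 0.923), with a sign that turned with array weights and without WT replicate 1 or SHIVA replicate 2. Aligned, the features overlap by 56 bases, of which 54 are the same. The differences are T2C and G46A, with the Ccl21a base first and positions counted from the 5′ end of its feature. The stretch around the second is shown, with that base in capitals.
Ccl21a: atacctaactgaataaaaaGgtgatccagc
Ccl21b: atacctaactgaataaaaaAgtgatccagc
Both features list the accessions of several Ccl21 copies, so each may bind the transcripts of more than 1 copy, and the difference seen by the Ccl21a feature cannot be assigned to 1 gene. Ccl19, the other Ccr7 ligand, ranged from 6.66 to 7.33 in WT and from 7.04 to 7.73 in SHIVA livers.

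Ccr7, the receptor of Ccl19 and Ccl21 on dendritic cells and naive T cells, read 5.59, 4.53 and 5.26 in WT livers and 6.18, 6.42, 6.08 and 5.72 in SHIVA livers. The genotypes did not overlap, and the log2 fold change was 0.98 (SE 0.27, adjusted p = 0.201). On the mean signal it was 0.60 and with normexp correction 0.43. Ccl27a, a skin chemokine with near-copies on chromosome 4, had 3 features, 2 with log2 fold changes of 0.20 and 0.28 and 1 with -0.13, and none was called.

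The remaining receptors were low. None of the 8 receptors tested was called, and 3 had an unadjusted p under 0.05 (Ccr7, Ccr9 and Cx3cr1). Over all genes tested 0.375% were called, so the lack of a call does not set the receptors apart. At that unadjusted p, 7.24% of all genes were higher and 6.09% lower in SHIVA livers. An unpaired t-test with Benjamini-Hochberg adjustment called 0 of all 20002 genes, so it tells nothing about receptors in particular. The study names this test among its general statistics and not for the arrays. Ccr9, the gut-homing receptor for Ccl25, read 5.11, 4.65 and 4.41 in WT livers and 3.66, 4.09, 3.75 and 4.43 in SHIVA livers. It was well above background in 3 of 3 WT but only 2 of 4 SHIVA livers, and SHIVA replicate 4 was level with WT replicate 3. Its log2 fold change was -0.74 (SE 0.24, adjusted p = 0.246), but -0.26 on the mean signal and -0.19 with normexp correction. Ccl25 had a log2 fold change of -0.26 (SE 0.20, adjusted p = 0.635). Its second feature, dim and above background on only 2 WT and 1 SHIVA arrays, read 3.98, 4.68 and 4.54 in WT livers. In SHIVA livers it read 3.55, 3.87, 3.25 and 3.40, without overlap. With each feature tested by itself its log2 fold change was -0.88 (SE 0.22), and it was not called.

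Cx3cr1, a receptor of monocytes and tissue macrophages, read 4.13, 4.24 and 4.45 in WT livers and 4.97, 5.95, 4.46 and 5.17 in SHIVA livers. SHIVA replicate 3 was only just above WT replicate 3, and the log2 fold change was 0.86 (SE 0.31, adjusted p = 0.283). The other Cx3cr1 feature, above background on 1 WT and 1 SHIVA array, read 3.11, 3.55 and 4.86 in WT livers and 3.61, 3.54, 4.46 and 3.48 in SHIVA livers, with overlap. With the mean of both features the log2 fold change was 0.40 and the genotypes overlapped, and on the mean signal of the brighter feature it was 0.38. That feature shares at least 20 bases with that of a predicted gene (LOC100048875). Its ligand Cx3cl1, a membrane-bound chemokine, read between 4.70 and 5.46 in WT livers and 5.24, 5.24, 6.76 and 5.09 in SHIVA livers, so that a single SHIVA liver stood apart. The log2 fold change was 0.54, and 0.14 without SHIVA replicate 3. Xcl1, made by NK and CD8 T cells, was well above background in 1 WT and 3 SHIVA livers, and read 2.91, 1.38 and 3.90 in WT and 4.01, 3.72, 3.72 and 2.84 in SHIVA livers. Its log2 fold change was 0.84 (SE 0.54, adjusted p = 0.554), but 0.17 without WT replicate 2 and 0.16 on the mean signal. Its receptor Xcr1 was above background on no array. The rule for single description left out 6 tested members (Ccl17, Ccl19, Ccl24, Ccl25, Ccr8 and Cxcr5), and all 6 overlapped on the feature used. Cxcr5 aside, their log2 fold changes were between -0.31 and 0.33. Cxcr5, the B cell receptor for Cxcl13, was above background in no WT liver and in SHIVA replicates 1, 2 and 4. SHIVA replicate 3, at 2.33, was below the WT livers (2.96 to 3.19), and no fold is given for it.

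The livers of a genotype kept a similar order over the members. WT replicate 2 was the lowest of the 3 WT livers for 21 of the 31 tested members, or 67.7%, against 28.5% of all genes tested. WT replicate 3 was the highest for 17, or 54.8%, against 34.8% of all genes. In SHIVA livers, replicate 4 was the lowest of the 4 for 15 members, or 48.4%, against 24.1% of all genes. SHIVA replicate 2 was the highest for 17, or 54.8%, against 33.9% of all genes. The median SD of the tested members was 0.36 in WT and 0.35 in SHIVA livers, and over all genes 0.25 and 0.23.

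Markers of white blood cells were set beside these values. The 11 markers of Kupffer cells and macrophages were all tested and all had a higher mean in SHIVA livers, with 0 called and 1 (Marco) at an unadjusted p under 0.05. Their log2 fold changes ran from 0.07 for Vsig4, 0.09 for Clec4f and 0.21 for Timd4 to 1.54 for Marco. Their summed signal was 31832, 23930 and 49553 in WT livers and 51175, 68808, 41954 and 32657 in SHIVA livers, of which Cd5l was 25.7% to 38.6%. The ranges overlapped, and as for the chemokines WT replicate 2 was the lowest and WT replicate 3 the highest WT liver, and SHIVA replicate 4 the lowest and SHIVA replicate 2 the highest SHIVA liver. Neutrophil markers summed to between 17695 and 18558 in WT and between 17312 and 20514 in SHIVA livers, but Csf3r alone made up 85.0% to 94.5% of that sum. The other neutrophil markers summed to 1841, 1052 and 997 in WT livers and 2492, 2612, 2942 and 962 in SHIVA livers, so that SHIVA replicate 4 was the lowest of all 7. The granule genes Mpo, Ngp and Ltf were above background in 0 of 3 WT livers and in SHIVA replicates 1 to 3. These 3 passed the filter through SHIVA arrays alone. With them, 9 neutrophil markers were tested, 7 with a higher and 2 with a lower mean in SHIVA livers. Of the 9, 0 were called and 2 had an unadjusted p under 0.05, Mpo and Camp. The lower ones, Elane and Csf3r, had log2 fold changes of -0.04 and -0.01. Monocyte markers summed to between 9377 and 19676 in WT and between 16112 and 22931 in SHIVA livers. Fn1, also made by hepatocytes, was 68.4% to 91.4% of that sum. Without Fn1 the sum was from 2731 to 3850 in WT and from 1727 to 2531 in SHIVA livers, most of it Ly6c1. Of the 6 monocyte markers tested, Ly6c1 alone had a lower mean in SHIVA livers (log2 fold change -0.83, SE 0.19, adjusted p = 0.140). The other 5 had a higher mean, and 0 were called. Of these, F13a1 passed the filter through SHIVA arrays alone. T cell markers (5962 to 8655 in WT, 5066 to 8416 in SHIVA, 76.5% to 86.9% of it Cd4), NK cell markers (1072 to 1242 and 1204 to 1690) and B cell markers (253 to 502 and 294 to 571) overlapped too. In T, NK and B cell lists 0 genes had an unadjusted p under 0.05. The NK markers Ncr1 and Eomes and the B cell marker Pax5 were above background on no array. Of the 5 dendritic cell markers tested, 3 had a higher and 2 a lower mean in SHIVA livers, with 0 called. Itgax had a log2 fold change of 1.46 (SE 0.39, adjusted p = 0.188), and Flt3, without overlap, one of 0.81 (SE 0.19, adjusted p = 0.139). The summed dendritic signal was 11667 to 13032 in WT and 11500 to 12178 in SHIVA livers, of which Siglech was 97.6% to 98.8%, and without Siglech it was from 137 to 180 in WT and from 183 to 277 in SHIVA livers. Markers of liver endothelium (5 higher, 4 lower) and of stellate cells (6 higher, 4 lower) went both ways, and those of bile ducts were 1 higher and 3 lower, with 0 called in each. An unadjusted p under 0.05 was found for 2 of 9 endothelial, 3 of 10 stellate and 1 of 4 tested bile duct markers. Without overlap were 1 endothelial and 4 stellate markers, against 12.2% of all genes tested. Of the adipose tissue markers 0 could be tested, and of the pancreas markers 2, with 1 in each direction. The part of cell content in the chemokine values was not tested, and in whole liver more cells of a type and more RNA per cell cannot be told apart.

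Genes that act with or beside the chemokines were read from 4 lists. None of their genes was called by limma, and the unpaired t-test called no gene at all. Of 9 chemokine-binding and chemokine-like genes outside the rule, 8 were tested, 6 with a higher and 2 with a lower mean in SHIVA livers, and 2 had an unadjusted p under 0.05. The platelet chemokines Ppbp and Pf4 had log2 fold changes of 0.87 (SE 0.52, adjusted p = 0.525) and 0.64 (SE 0.22, adjusted p = 0.268), and Ackr4, a scavenger of Ccl19, Ccl21 and Ccl25, one of -0.76 (SE 0.35, adjusted p = 0.402).

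The list of G protein signalling below the receptors had 27 genes, 26 of them tested, with 22 higher and 4 lower in SHIVA livers, a median log2 fold change of 0.36 and 6 at an unadjusted p under 0.05. Rgs1, which dampens chemokine receptor signalling in lymphocytes and macrophages, had a log2 fold change of 1.58 (SE 0.30, adjusted p = 0.0800), the largest of the list. Fgr, a kinase of myeloid cells, had a log2 fold change of 0.82 (SE 0.29, adjusted p = 0.275).

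NF-kB response genes and inflammatory cytokines numbered 21, of which 18 were tested, 17 had a higher and 1 a lower mean in SHIVA livers, and 4 an unadjusted p under 0.05, with a median log2 fold change of 0.40. Of these 4, 1 was above background in no WT liver and passed the filter through SHIVA arrays alone. Il1b, the inflammatory cytokine, had a log2 fold change of 2.57 (SE 0.69, adjusted p = 0.191) and was above background in 2 of 3 WT livers. Vcam1, an adhesion molecule for monocytes and lymphocytes, had one of 1.12 (SE 0.31, adjusted p = 0.196), and Tnfaip3, a brake on NF-kB, one of 0.97 (SE 0.26, adjusted p = 0.192). Of 16 interferon gamma response genes 14 were tested and all 14 had a higher mean in SHIVA livers, with a median log2 fold change of 0.44 and 3 at an unadjusted p under 0.05. In all 14 the genotypes overlapped. The summed signal of the list was 7692 to 14056 in WT and 9836 to 15412 in SHIVA livers. Gbp2, a guanylate-binding protein, had a log2 fold change of 1.37 (SE 0.42, adjusted p = 0.233), while Ifng itself was above background on no array. Over all genes tested, 48.8% had a higher mean in SHIVA livers.

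**Figure D4:**
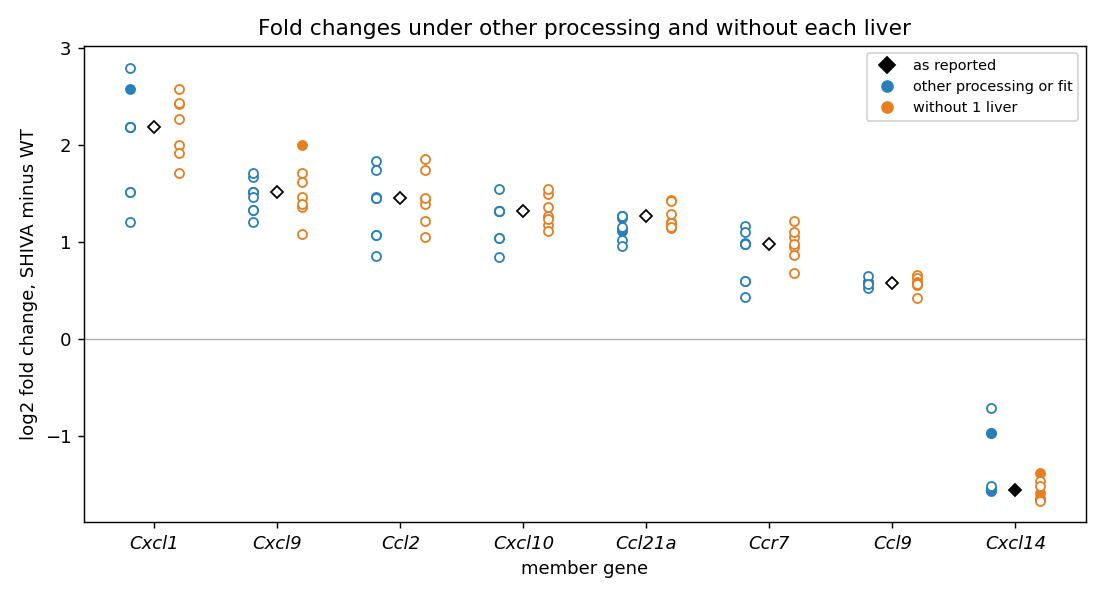
Log2 fold change (SHIVA minus WT) of 8 members as reported (black), under another normalization, filter or fit (blue) and with 1 liver left out (orange). Filled points passed an adjusted p of 0.05. The 8 members kept their sign in every setting, and Cxcl14 ranged from -1.67 to -0.71.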

How the data were processed

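Liver RNA of 3 WT and 4 SHIVA mice was labelled with Cy3 and hybridized to 1-colour Agilent arrays. The authors deposited each array's intensity values (Agilent Feature Extraction 10.5.1.1, with spatial and multiplicative detrending, no local background subtraction, mm9 positions) and log2 values of all arrays in a single table, quantile normalized by them in R. Here processed intensities were used without the 120 to 163 spots per array marked as uneven or deviant, quantile normalized over the 7 arrays, put on the log2 scale and averaged per feature. The brightest feature stood for a gene. Genotypes were compared in R 4.3.3 with limma 3.58.1 (lmFit, eBayes), and the step was tested on simulated data. Alternatives were another scaling, signal, background correction, filter, feature rule, weighting, block or test, the authors' table, and leaving out each mouse. A slide row term could not be fitted. Members and lists were chosen with earlier results of these data known. Described singly were members that were called, had an unadjusted p under 0.05 or no overlap, Ccl2 and Cxcl14, the 2 brightest of each role, and those whose features differ in sign. From the lists, up to 4 genes of large fold change were named. Names were updated by accession to GRCm38.p6, which matched 66 of the 69 member features. The 2 Cxcl11 features and 1 of Ccr9 kept the name in the files. The values of 1 member and 1 list gene are not reported here.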

Additional observations from a re-analysis of the deposited data

Results flagged for a closer look

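In the 4 SHIVA livers, 2 of the 25 members examined for it had a value far from the other livers, measured as the gap to its nearest neighbour over the whole range and set against Dixon's limit for 4 samples. Chance gives such a value in about 1 of 20 groups. For Cx3cl1, SHIVA replicate 3 was at a log2 signal of 6.76 against 5.09 to 5.24 in the other 3 SHIVA livers (gap over range 0.910). For Cxcr6, SHIVA replicate 2 was at 6.53 against 6.06 to 6.12 in the others (0.883). Groups of 3 were not tested.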

How the results depend on the processing

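Depth of signal limits these results, as 26 of 57 members could not be tested and 5 more were dim on some arrays. Cxcl14 kept its direction and its lack of overlap in every setting. The count of genes called, 75, was 142 with the mean signal, 142 with the authors' table, 13 with no filter on dim features and 229 with array weights. By the unpaired t-test it was 0 (2301 at an unadjusted p under 0.05). When 1 mouse was left out it was 3 to 415, the lowest without WT replicate 1 and the highest without WT replicate 3. The count of members called, 1, was 2 with the mean signal, the authors' table and the filter on all 7 arrays (Ccl21a and Cxcl14), 0 with normexp, without a filter and by the t-test, and 0 to 2 when 1 mouse was left out. Members without overlap, 9 of 31, were 15 of 57 without a filter (11.2% of all genes) and 9 to 16 with 1 mouse left out. They were 16 without WT replicate 3 and 14 without SHIVA replicate 4, where 29.0% and 20.8% of all genes had no overlap. With the replicate number as a block, 32 genes were called and 1 member, Cxcl1 (adjusted p = 0.0296), in place of Cxcl14 (0.0561), with 9 members without overlap. Deviations from the genotype mean had correlations of -0.05, 0.01 and 0.24 between same-numbered mice, and of -0.20 to 0.20 between the others. So few mice cannot show whether the numbers pair them. The replicate number is also the column on the slide.

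Of 393 values for single members under these alternatives, 15 had the opposite sign, all of members with overlap and none of them called. Ccl21b was -0.12 with array weights and -0.077 to 0.20 with 1 mouse left out, and Cxcl12 was 0.0082 with the authors' table, 0.0081 with array weights and -0.091 to 0.033 with 1 mouse left out. Cxcr3 was -0.11 to 0.53 with 1 mouse left out. Cxcr6 was 0.053 with array weights, 0.0075 with the replicate block and -0.29 to 0.19 with 1 mouse left out. The causes were not tested. The medians of the 4 gene lists moved by less than the spread between SHIVA livers under scaling to the 75th percentile.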
